A study of Mus musculus with 5 samples.

Results

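3 libraries of mouse hippocampus are compared here, namely both libraries made 4 h after the onset of kainic acid seizures and the single library of untreated control animals, chosen by their labels as 3 of the 5 libraries of the series. The mice were 3-month-old males of the C57/bl6 strain, and the work was done in the dark phase of their day, at fixed hours per the labels. Kainic acid (20 mg/kg), which activates glutamate receptors of the kainate and AMPA types, was injected into the peritoneum to provoke seizures, time was counted from the first rearing, and per the study's methods only animals that reached seizures of stage 5 were used. The control is labelled as untreated, so injection and seizure cannot be told apart, and the 2 libraries of 4 h are called replicate 1 and replicate 2. Whether each library stands for 1 mouse is not stated, and p-values then measure only the spread between these samples, which may be technical. Stranded total RNA libraries were sequenced, and the authors deposited counts per gene, which join all splice variants. The gene counts summed to 19100374 (control), 18250114 (replicate 1) and 19109204 (replicate 2).

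Seizures drive a program of transcription in hippocampal neurons. Immediate early genes, many of which encode transcription factors such as Fos and Egr1, are switched on without new protein synthesis, and a later wave of genes encodes secreted factors, synaptic proteins and inhibitors of the signals that started the response. Glia react on a slower course, astrocytes with intermediate filaments and acute phase proteins and microglia with chemokines.

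Markers of the hippocampus were present in each library. The 10 markers of dentate granule cells summed to 633 normalized CPM (counts scaled by the TMM library size) in the control, 726 in replicate 1 and 581 in replicate 2. Those of CA1 pyramidal cells (6 genes) summed to 491, 382 and 419 normalized CPM, and those of CA2 and CA3 pyramidal cells (10 genes) to 272, 236 and 284. No gene of these 3 lists was at 0 in any of the 3 libraries. In bulk RNA, fewer cells of a type and less RNA per cell cannot be told apart.

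Replicate 1 stood apart from the other libraries. The root mean square difference of log2(normalized CPM + 1) over the 19768 genes tested was 0.637 between replicate 1 and the control, 0.419 between replicate 2 and the control and 0.450 between the replicates. Choroid plexus markers, which belong to the epithelium that makes cerebrospinal fluid and lies beside the hippocampus, were nearly absent from replicate 1. Ttr, the transthyretin gene and the most abundant of them, had 74570 counts in the control, 275 in replicate 1 and 75088 in replicate 2. All 21 markers of this list were at least 2-fold lower in replicate 1 and 0 of 21 in replicate 2, and their summed level was 6350, 230 and 7000 normalized CPM in control, replicate 1 and replicate 2. These genes are kept apart below. The 8 ependymal markers, led by Foxj1, stood at 0.502 of the control level in replicate 1 and at 1.56 in replicate 2. Thalamus markers, led by Rora, went the other way, with a sum over 8 genes of 193, 659 and 287 normalized CPM. Reads on no gene made up 33.1% of replicate 1, 25.3% of replicate 2 and 24.7% of the control. The part of these differences in the results below was not tested, and the values of named genes are therefore given for both replicates.

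**Figure D1:**
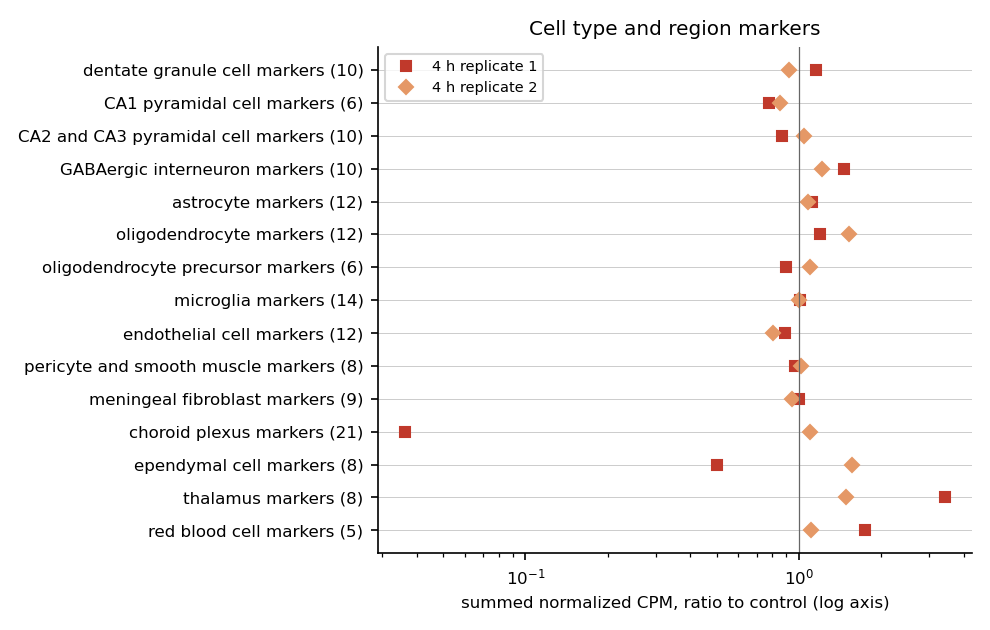
Ratio of the summed normalized CPM of each marker list to the untreated control, on a log axis, for replicate 1 (squares) and replicate 2 (diamonds) of 4 h. The number of genes is in brackets. Choroid plexus markers stood at 0.0363 of the control in replicate 1 and at 1.10 in replicate 2, and thalamus markers at 3.42 and 1.49.

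At 4 h, 898 of the 19768 genes were at least 2-fold higher in both replicates than in the control (4.54%), and 292 were at least 2-fold lower in both (1.48%), with counts under 3 set to 3. The higher genes were led by transcription factors (Atf3, Fosb), secreted factors (Inhba, Nptx2, Bdnf), inducible kinases and enzymes (Pim1, Ptgs2) and reactive astrocyte genes (Lcn2, Ptx3), and the lower ones by genes such as Dsp, Ntf3 and Cys1. Their median ratio was 4.14 in replicate 1 and 2.76 in replicate 2 for the higher genes, and 0.356 and 0.391 for the lower ones. Replicate 1 had the larger ratio for 730 of the 898 higher genes. Both ratios share the 1 control library, so an error of that library moves both the same way. Between the replicates themselves 2306 genes differed at least 2-fold, 1389 of them higher in replicate 1, with an SD of 0.699 for the log2 ratio of replicate 1 to replicate 2. The genes nearest to the limit had a smaller fold of 2.0004 on the inside and 1.9998 on the outside for the higher genes, and of 2.0029 and 1.9952 for the lower ones.

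edgeR's quasi-likelihood test, which can take its spread only from the 4 h pair, called 1 gene (0.00506%). An unadjusted p under 0.05 was found for 2291 genes, 1425 higher and 866 lower. With uniform p-values 988 would be given by chance. All genes share the 1 control library, so the excess over 988 is not a count of changed genes. In data simulated from means over all 5 libraries, false calls exceeded the threshold share for edgeR and for DESeq2. The simulation held none of the marker differences of replicate 1, so its share of false calls may not carry over. Calls of both are uncertain. DESeq2, as an alternative, gave an adjusted p to 14019 genes and called 226 higher (1.61%) and 12 lower (0.0856%). Of these, 189 of the 226 and all 12 of the 12 also lay past 2-fold in both replicates. With library size alone in place of TMM the 2-fold rule gave 717 higher and 446 lower genes, against 898 and 292. In replicate 2 without replicate 1, 1234 genes were at least 2-fold higher and 692 lower, and in replicate 1 without replicate 2 these were 2317 and 1291.

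**Figure D2:**
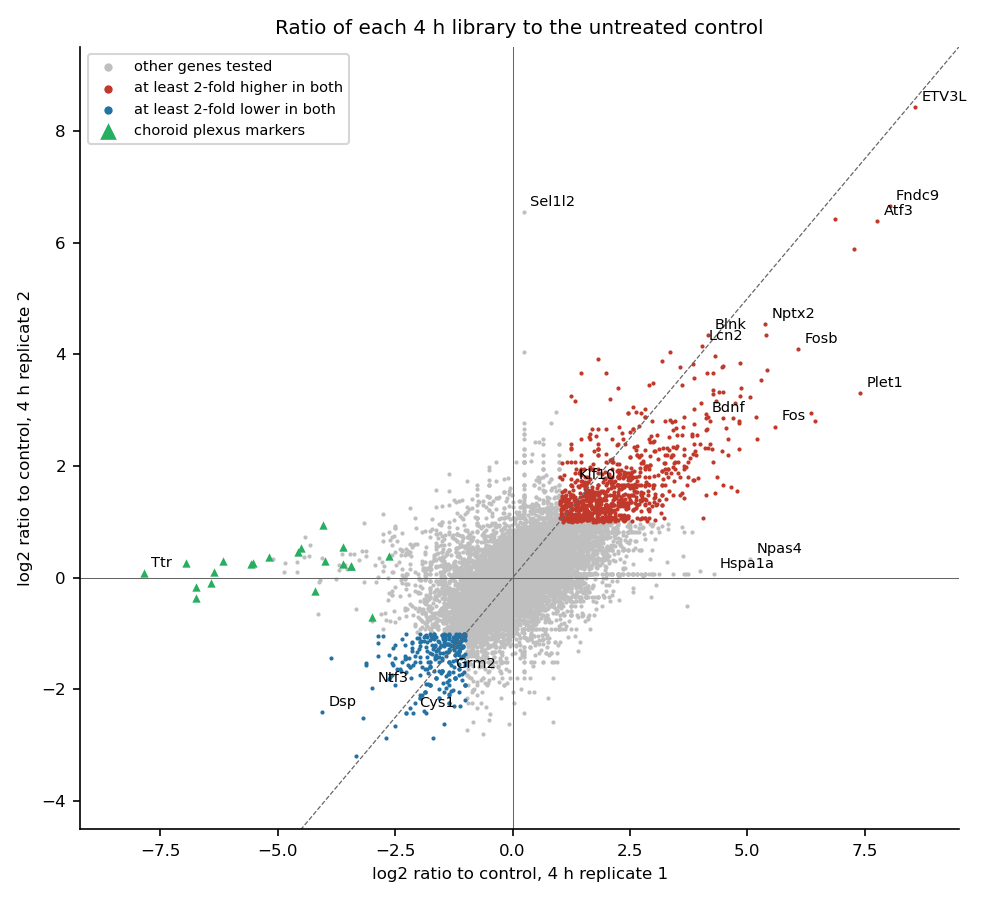
Log2 ratio to the untreated control of each of 19768 genes in replicate 1 (horizontal) and replicate 2 (vertical) of 4 h, with counts under 3 set to 3. Red points are the 898 genes at least 2-fold higher and blue points the 292 at least 2-fold lower in both, the dashed line marks equal ratios, and the choroid plexus markers (triangles) lie far to the left near a ratio of 1 in replicate 2.

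The called gene is listed as ETV3L (ENSMUSG00000118505.1), a name given to an ETS family transcription factor, and its identifier was not found in GENCODE M21. It had 1 count in the control, 963 in replicate 1 and 982 in replicate 2, with 2 counts at 1 h and 365 at 8 h. The ratio to the control was 1140 in replicate 1 with a 95% counting interval of 204 to 45000, and 1030 in replicate 2 with one of 185 to 40900. With the control set to the floor of 3 counts these ratios were 379 and 345. Both replicates held nearly equal levels, 57.2 and 51.9 normalized CPM, and the gene rose with a log2 fold change of 8.41 (adjusted p = 0.0366 by Benjamini-Hochberg in edgeR's quasi-likelihood test). The call was kept in DESeq2 (adjusted p = 1.23e-08) and in edgeR with library size alone (1.71e-05). It was lost in edgeR with median-of-ratios factors (log2 fold change 8.42, adjusted p = 0.0793), with the filter at a mean of 1 CPM and in limma-voom.

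Among protein-coding genes the smaller of both ratios, with counts under 3 set to 3, was greatest for Fndc9, a gene of a fibronectin type III domain protein on chr11:46235531-46239872 of GRCm38. Its counts were 4 in the control, 885 in replicate 1 and 381 in replicate 2, which are 262 (95% counting interval 102 to 962) and 100 (38.8 to 370) times the control. At 1 h it had 30 counts and at 8 h 94, so both 4 h libraries lay above the other times. Krt75, with no count in the control, was at least 117-fold higher in replicate 1 and at least 85.3-fold in replicate 2 against the floor of 3 counts, with lower 95% counting limits of 94.6 and 68.8 for 0 counts. Nptx2 (chr5:144545902-144557478), the neuronal pentraxin that clusters AMPA receptors at synapses, had 344, 12145 and 7597 counts in control, replicate 1 and replicate 2, or 17.3, 721 and 402 normalized CPM. This made it the gene with the smallest DESeq2 adjusted p among those named (1.18e-38), while in edgeR's quasi-likelihood test the log2 fold change of 5.01 (SE 0.46) had an adjusted p of 0.234. Blnk (chr19:40928927-40994535), a linker protein of B cell receptor signalling, had 49, 744 and 940 counts and stood higher in replicate 2, at 17.9 and 20.2 times the control.

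**Figure D3:**
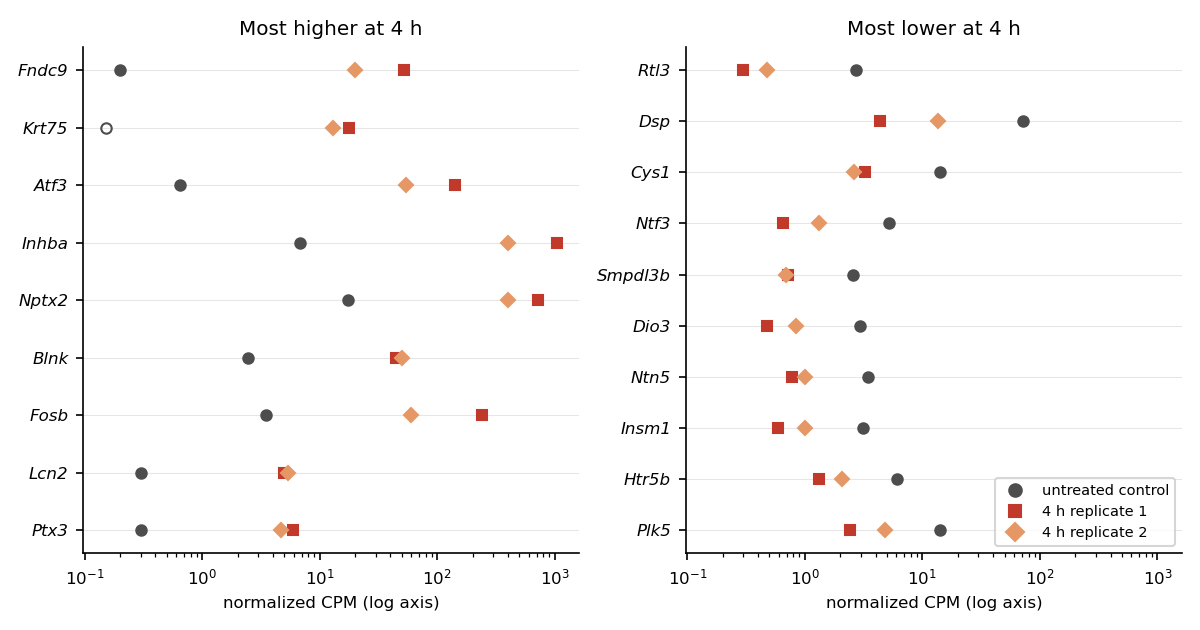
Normalized CPM on a log axis of 9 of the 10 protein-coding genes most higher (left) and of the 10 most lower (right) at 4 h, in the untreated control (circles), replicate 1 (squares) and replicate 2 (diamonds). The open circle of Krt75 stands for 0 counts, drawn at the level of 3 counts.

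Of the 30 activity-regulated transcription factors, 14 were at least 2-fold higher in both replicates and 0 lower, against 4.54% and 1.48% of all genes. DESeq2 called 8 of the 29 it could adjust, and its shares over all genes were 1.61% higher and 0.0856% lower. The same shares over all genes hold for each list that follows. Their median log2 fold change was 1.68, against 0.01 over all genes tested. Atf3, a stress-induced factor of the ATF/CREB family, had 13 counts in the control, 2397 in replicate 1 and 1028 in replicate 2, or 218 and 83.2 times the control. At 1 h it had 1939 counts and at 8 h 78. Fosb had 70, 4012 and 1138 counts, with 6540 at 1 h. Egr3 was close to equal in both replicates, with 547, 1931 and 1887 counts, and Klf10 was higher in replicate 2, with 629, 1288 and 1871.

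Other early genes of the same list were high in replicate 1 alone. Npas4, a factor specific to neuronal activity, had 78 counts in the control, 2189 in replicate 1 and 93 in replicate 2, against 12204 at 1 h and 90 at 8 h. Egr1 had 580, 1668 and 584 counts, Nr4a1 had 673, 2747 and 655, and Nr4a2 had 993, 4348 and 1152. For these genes replicate 2 lay less than 2-fold from the control. Of the 30 members 26 passed 2-fold in replicate 1 and 14 in replicate 2. Fos itself was higher in both, at 48.1 times the control in replicate 1 and 6.52 times in replicate 2.

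Promoter windows reach from 250 bases before to 50 after a transcript's start (RefSeq, GRCm38.p6) and were found for 12392 of the 19768 genes tested, 425 of the 898 higher and 169 of the 292 lower genes. An AP-1 site (TGANTCA), the binding letters of Fos and Jun dimers, stood in a window of 11.8% of the higher genes (exact 95% interval 8.86 to 15.2), 5.33% of the lower (2.46 to 9.87) and 6.33% of all tested. The CArG box, bound by serum response factor, stood in 4.00% of the higher genes (2.35 to 6.33), in 0 of 169 lower genes (up to 2.16%) and in 1.64% of all. The CRE (TGACGTCA), bound by CREB, was found in 3.76%, 1.18% and 3.41% of the higher, lower and all tested genes. The EGR site (GCGTGGGCG) was found in 2.12%, 0.592% and 1.33%, and the CCAAT box (CCAAT) in 39.5%, 43.8% and 42.7%. Over all 27025 genes of the table, tested or not, these letters stood in a window of 8.97% (AP-1), 1.81% (CArG), 2.03% (CRE), 0.707% (EGR) and 41.1% (CCAAT), with both strands searched, and the AP-1 share of 8.97% lies inside the interval of the higher genes. These shares were not tested, and a match is a description of letters, not of binding.

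**Figure D4:**
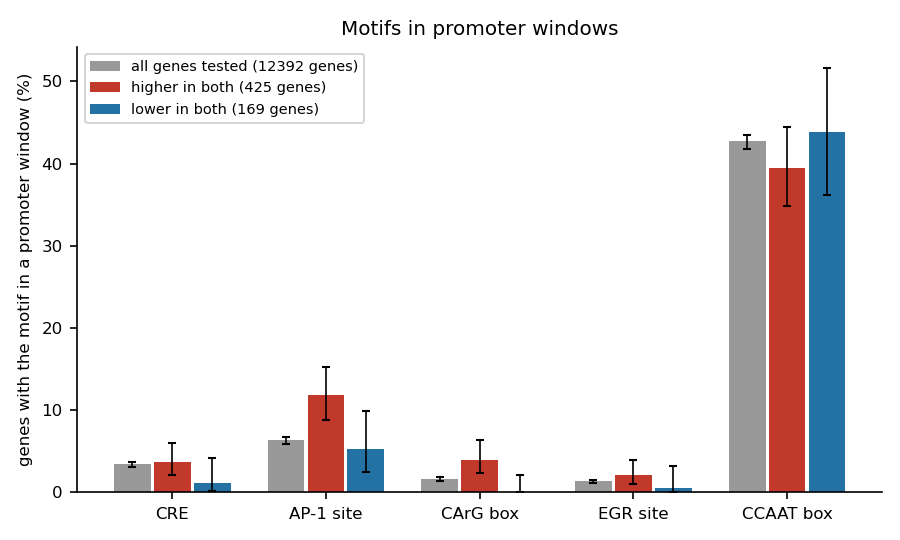
Share of genes with each motif in a promoter window, for all 12392 tested genes with a window (grey), 425 higher genes (red) and 169 lower genes (blue), with exact 95% binomial intervals. The AP-1 site reaches 11.8% in the higher genes and 6.33% over all.

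Among the leading genes and the transcription factors higher in both replicates, the bases before the start held a CRE in Maff and 2 AP-1 sites in Csrnp1, each before 1 of the gene's annotated starts. These were the only genes of both groups, among those with a window in the table, that held a CRE, an AP-1 site or a CArG box there. Capitals mark only these motifs, and an EGR site in Maff and a CCAAT box in Csrnp1 stand unmarked. The marked motif ends 21 bases before the start in Maff and 95 and 7 bases before it in Csrnp1. The 250 bases shown lie at chr15:79347270-79347519 on the plus strand for Maff and at chr9:119983024-119983273 on the minus strand for Csrnp1 (RefSeq, GRCm38.p6).
Maff: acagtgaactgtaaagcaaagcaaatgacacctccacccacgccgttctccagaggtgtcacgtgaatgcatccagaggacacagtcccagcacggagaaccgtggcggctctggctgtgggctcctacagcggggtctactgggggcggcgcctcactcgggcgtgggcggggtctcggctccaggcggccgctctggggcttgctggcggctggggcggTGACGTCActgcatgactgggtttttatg
Csrnp1: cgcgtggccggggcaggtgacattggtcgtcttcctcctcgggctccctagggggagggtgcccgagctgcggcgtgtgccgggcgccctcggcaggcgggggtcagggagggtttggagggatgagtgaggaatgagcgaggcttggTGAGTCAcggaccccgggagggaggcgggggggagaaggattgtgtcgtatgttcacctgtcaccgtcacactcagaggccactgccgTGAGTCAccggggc

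Maff, a small basic leucine zipper protein without an activation domain, had 13 counts in the control, 366 in replicate 1 and 116 in replicate 2. Csrnp1, a nuclear protein first found as induced by axin, had 137, 2336 and 1162 counts. Maff was 33.3 and 9.39 times the control and Csrnp1 20.2 and 8.93 times, so replicate 1 was the higher of the pair for both.

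Inducible kinases, small GTPases and GADD45 genes formed the list with the largest share past 2-fold in both replicates, 13 of 18 higher and 0 lower, and 10 of 18 were called by DESeq2. The median log2 fold change was 1.96, and all 18 lay above the control in both. Pim1, a serine/threonine kinase, had 27 counts in the control, 889 in replicate 1 and 299 in replicate 2. Ptgs2, the inducible cyclooxygenase that makes prostaglandins, had 461, 11308 and 4621 counts. Gadd45b, linked to DNA demethylation in active neurons, had 144, 2560 and 1365 counts. Sgk1 (2360, 7012 and 6492) was nearly the same in both replicates.

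Of 20 genes that feed back on MAP kinase, G protein and calcineurin signals, 8 were at least 2-fold higher in both and 0 lower, 5 of the 19 with an adjusted p were called by DESeq2, and the median log2 fold change was 1.29. Counted in each replicate by itself, with those of both included, 14 were at least 2-fold higher in replicate 1 and 8 in replicate 2. Rgs2, which speeds the shut-off of G proteins, had 669 counts in the control, 4325 in replicate 1 and 2880 in replicate 2. Dusp4, a MAP kinase phosphatase, had 378, 2423 and 1447 counts. Dusp6 differed in direction between the replicates, at 2.33 times the control in replicate 1 and 0.749 in replicate 2, and Dusp1 was 4.75 and 1.03 times the control. The higher members thus include the phosphatase Dusp4 but not Dusp1 or Dusp6.

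Secreted growth factors and ligands had 6 of 18 measured members higher in both and 1 lower, Ntf3, against 4.54% and 1.48% of all genes, with 4 of 14 called by DESeq2 and a median log2 fold change of 0.89. With library size alone 3 members were higher in both. Bdnf, the neurotrophin best known for its control by activity, had 868 counts in the control, 12693 in replicate 1 and 5981 in replicate 2. Ntf3 (chr6:126101412-126166910), a related neurotrophin, had 104, 11 and 25 counts, or 8.00-fold and 3.95-fold lower than the control. The 2 neurotrophins thus lay on opposite sides of the control in both replicates. Vegfa had 964, 1838 and 1860 counts, and the ligand of the EGF receptor Hbegf 207, 713 and 411. Ereg and Gdf15 did not pass the filter.

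Among 22 neuropeptides and granins, 8 were at least 2-fold higher in both and 0 lower (2 of 19 called by DESeq2, median log2 fold change 0.76). Scg2, the secretogranin of dense core vesicles, had 3445 counts in the control, 27816 in replicate 1 and 13525 in replicate 2. Vgf, a granin whose peptides act on synapses, had 1040, 2830 and 2861 counts and did not differ between the replicates by more than 1.25-fold. Pdyn, the prodynorphin gene, had 164, 1127 and 440 counts. Npy was 1.55-fold higher in replicate 1 and 2.33-fold in replicate 2, and Sst 1.27-fold and 1.00-fold.

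In lists as short as those of the glutamate and GABA receptors, the shares over all genes (4.54% higher and 1.48% lower) leave room for few members past 2-fold, and a difference from other lists was not tested. None of 15 AMPA, kainate and NMDA receptor subunits was 2-fold higher or lower in both replicates, and DESeq2 and edgeR called 0 of them (median log2 fold change -0.08, range -0.51 to 0.60, and 0.01 over all genes tested). Gria2 had 24021 counts in the control, 18843 in replicate 1 and 20915 in replicate 2. Of 7 metabotropic glutamate receptors Grm2 alone was past 2-fold, with 692, 230 and 199 counts, or 0.393 and 0.303 of the control (DESeq2 adjusted p = 0.0134). At 8 h Grm2 had 1037 counts. Of 17 genes of GABA synthesis, transport and receptors 0 were past 2-fold in both and 3 were higher in replicate 1 alone, with DESeq2 calling Gabra4 (2022, 3690 and 3738 counts). Gad1, which makes GABA, was 2.01 and 1.48 times the control.

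Postsynaptic scaffolds gave 2 of 18 members higher in both, Arc and Homer1, and 0 lower (median log2 fold change -0.06, 0 called by DESeq2). Arc, whose protein governs the removal of AMPA receptors, had 2936 counts in the control, 43661 in replicate 1 and 17548 in replicate 2. The other scaffolds were closer to the control, as in Dlg4 (6676, 5135 and 5956). Of 39 potassium and HCN channels 3 were higher in both (Kcnk1, Hcn4 and Kcna4) and 0 lower, against 4.54% and 1.48% of all genes, 2 of 39 were called by DESeq2, and the median was -0.02. With library size alone 0 of the 39 were higher in both. Kcna4, a subunit of fast inactivating potassium channels, had 1134, 3665 and 2159 counts. Of 23 sodium and calcium channels 0 were past 2-fold in both, or 1 lower with library size alone, and DESeq2 called 0 (median -0.08). Cacna1h, a T type calcium channel, was 0.364 of the control in replicate 1 and 0.608 in replicate 2.

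**Figure D5:**
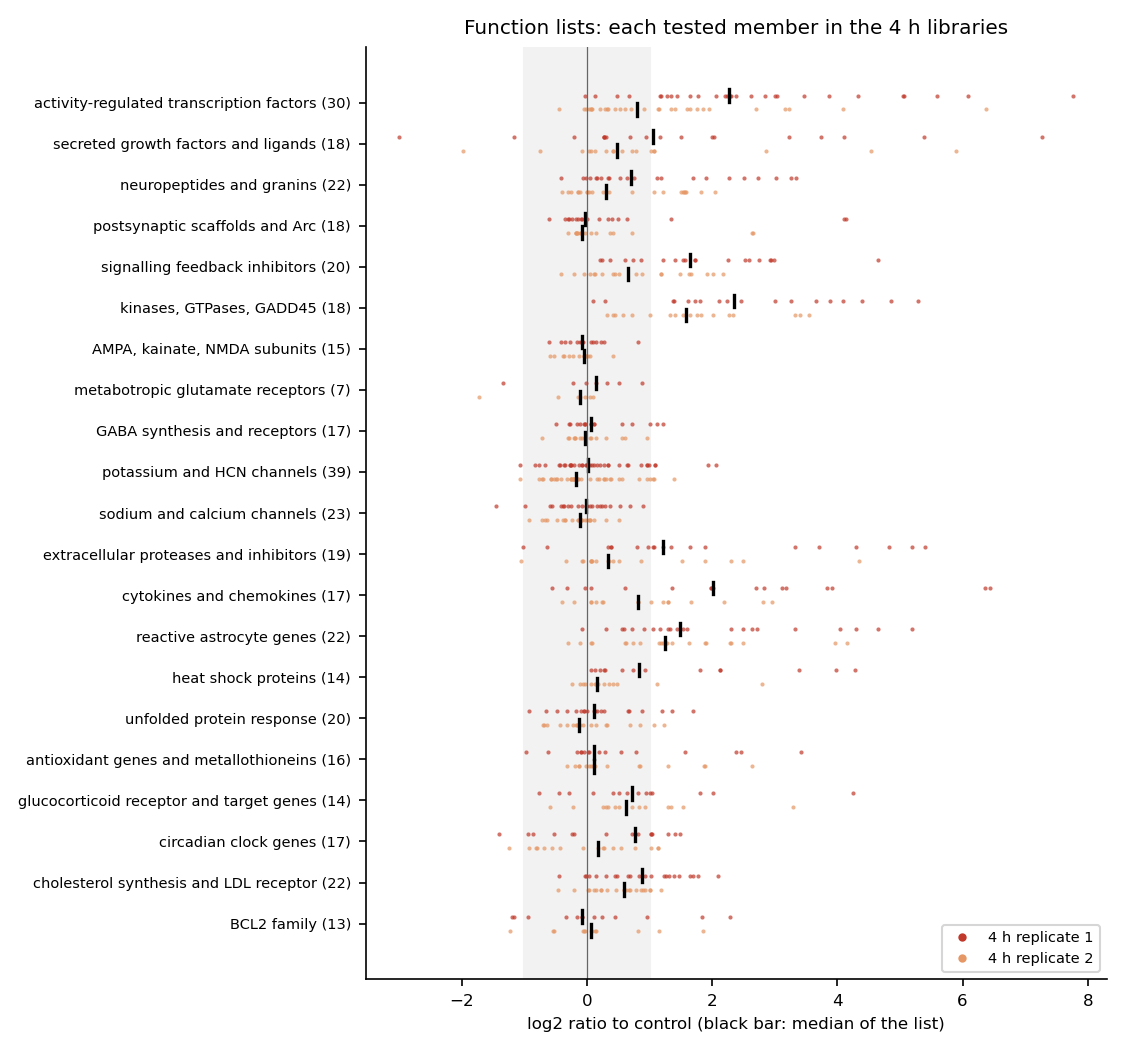
Log2 ratio to the untreated control of each tested member of the 21 function lists in replicate 1 (red) and replicate 2 (orange), with the median of each list as a black bar and the number of members in brackets. The grey band spans ratios under 2-fold. The medians of the kinase list are 5.12 and 3.00 times the control, and those of the postsynaptic scaffolds 0.974 and 0.945.

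Reactive astrocyte genes were higher in both replicates for 12 of 22 members and lower for 0 (7 of 19 called by DESeq2, median log2 fold change 1.34). Gfap, the intermediate filament of astrocytes, had 4400 counts in the control, 10034 in replicate 1 and 9647 in replicate 2. Lcn2, an iron-carrier binding protein of the acute phase, had 6, 83 and 101 counts, and Osmr, the oncostatin M receptor, 94, 796 and 434. The replicates were within 1.25-fold of each other for Gfap and Lcn2. The 12 general astrocyte markers summed to 6050, 6790 and 6550 normalized CPM, with 0 past 2-fold in both replicates, beside 12 of the 22 reactive genes.

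Cytokines, chemokines, adhesion and NF-kB feedback genes were higher in both replicates for 8 of 17 measured members and lower for 0 (3 of 9 called by DESeq2, median log2 fold change 1.53). Counts were low in several members, but not in Cx3cl1, at 367, 561 and 439 normalized CPM. Ccl3, a chemokine of microglia, had 0 counts in the control, 208 in replicate 1 and 22 in replicate 2, at least 82.0-fold and at least 7.72-fold higher against the floor of 3 counts (lower 95% counting limits for 0 counts 66.1 and 5.77). Ccl4 had 3, 221 and 20 counts. The 14 microglia markers summed to 384, 390 and 384 normalized CPM, with 0 past 2-fold in both and P2ry12, the purine receptor of resting microglia, at 634, 234 and 336 counts. Il6, Il1rn, Cxcl2, Sele and Selp did not pass the filter.

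Extracellular proteases, their inhibitors and matricellular proteins were higher in both for 5 of 19 members and lower for 1, Mmp9, which had 24, 10 and 11 counts and counting intervals that include 1 in both replicates (1 of 13 called by DESeq2, median 1.06). Timp1, an inhibitor of metalloproteinases, had 3, 93 and 16 counts. Ccn1, a matricellular protein, had 36, 600 and 98. More of these passed 2-fold in replicate 1, where 12 members were at least 2-fold higher and 1 lower, against 5 and 1 in replicate 2.

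Of 14 heat shock genes 10 lay above the control in both replicates and 0 below, with 6 at least 2-fold higher in replicate 1 and 2 in replicate 2. Bag3, a co-chaperone, and Hsph1, a large heat shock protein, were higher in both (2 of 14 higher and 0 lower, against 4.54% and 1.48% of all genes, both called by DESeq2, median 0.58), with 73, 647 and 481 counts for Bag3. Hspa1a, the inducible HSP70, had 96 counts in the control, 1576 in replicate 1 and 95 in replicate 2, and Hspa1b had 134, 1790 and 139. At 1 h these genes had 141 counts each, so replicate 1 of 4 h alone stood high among the 5 libraries.

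Genes of the unfolded protein and integrated stress response were higher in both for 2 of 20, Chac1 and Trib3, and lower for 0, against 4.54% and 1.48% of all genes (1 of 19 called by DESeq2, Atf4, median 0.03), and with library size alone 1 was higher. Of 16 antioxidant and metallothionein genes 4 were higher and 0 lower, all 4 called by DESeq2 (median 0.16), and these were Srxn1, Hmox1, Mt1 and Mt2. Srxn1, which restores oxidized peroxiredoxins, had 1338 counts in the control, 12132 in replicate 1 and 7921 in replicate 2. Sod1, Sod2 and Cat were not past 2-fold in either replicate.

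Of 14 genes of the glucocorticoid receptor and its targets 3 were higher in both and 0 lower (2 called by DESeq2, median 0.68), with 5 higher in replicate 1 and 4 in replicate 2. Cdkn1a, a cell cycle inhibitor also controlled by p53, had 54, 874 and 500 counts, while Fkbp5, a common marker of the hormone, was 1.33 and 1.65 times the control. Of 17 circadian clock genes 2 were higher in both, Cry1 and Per2, and 0 lower, against 4.54% and 1.48% of all genes (1 called by DESeq2, median 0.58, 1 higher and 1 lower with library size alone). With Cry1 and Per2 included, 6 were higher and 1 lower in replicate 1, and 3 and 1 in replicate 2. The lower one in replicate 1 was Dbp, a direct target of the clock, at 763, 244 and 383 counts. In replicate 2 it was Per3, with a log2 fold change of -1.24 without replicate 1, against -0.92 for Dbp. The labels state fixed hours for the work, but the hour at which each library was taken is not given, and a part of time of day in these values was not tested.

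Cholesterol synthesis genes were higher in both for 2 of 22, Idi1 and Pmvk, and lower for 0, against 4.54% and 1.48% of all genes. DESeq2 called 5 of 21 higher, against 1.61% of all genes. Replicate 1 by itself had 10 members at least 2-fold higher and replicate 2 had 2, both counts including Idi1 and Pmvk. With library size alone 1 member was higher in both. Their median log2 fold change was 0.74, and 19 of 22 lay above the control in both replicates. BCL2 family genes were higher in both for 2 of 13, Mcl1 and Pmaip1, and lower for 1, Bbc3, against 4.54% and 1.48% of all genes (1 of 12 called by DESeq2, median 0.00). Mcl1, which protects from cell death, had 1104, 3322 and 2322 counts.

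3 markers of dentate granule cells were at least 2-fold lower in both replicates. Dsp (chr13:38151294-38198577), which encodes desmoplakin, had 1437 counts in the control, 73 in replicate 1 and 257 in replicate 2, and was 16.7-fold and 5.31-fold lower. At 1 h and 8 h it had 1162 and 1201 counts, so both 4 h libraries were the lowest of the 5. C1ql2, a complement-like protein of mossy fibre synapses, had 584, 186 and 221 counts, with 1019 at 8 h, and Lct, the lactase gene, 1044, 102 and 345. Prox1, the factor that fixes granule cell identity, went the other way, with 1194, 2889 and 2263 counts. DESeq2 called C1ql2 lower (adjusted p = 0.0366) and Prox1 higher (0.0139), while Dsp (0.271) and Lct (0.708) were not called. Of the 10 members 5 lay below and 5 above the control in both replicates, with Stxbp6 at 0.474 and 0.522, and the summed level stood at 1.15 and 0.917 of the control.

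Of the genes most lower at 4 h that stand in no other list, Cys1, a cilium protein gene, had 283 counts in the control, 55 in replicate 1 and 50 in replicate 2. DESeq2 gave an adjusted p to 5 of the 10 genes most lower and called Cys1 alone (adjusted p = 0.0196), at 0.230 and 0.186 of the control. Dio3, which inactivates thyroid hormone, had 59, 8 and 16 counts, with 7 at 1 h and 1 at 8 h. Plk5, a polo-like kinase of neurons, had 283, 41 and 91. Rtl3, Smpdl3b, Ntn5 and Insm1 had between 51 and 69 counts in the control and between 5 and 19 in the 4 h libraries, and Htr5b, a serotonin receptor, had 122, 22 and 39. In these genes both replicates lay below the control with counting intervals that exclude 1.

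Other cell types gave few members past 2-fold in both replicates. The shares over all genes (4.54% higher and 1.48% lower) leave room for few in lists this short, and a difference from these shares was not tested. GABAergic interneuron markers (10 genes) summed to 804, 1170 and 976 normalized CPM, and oligodendrocyte markers (12 genes, led by Mbp) to 3760, 4480 and 5730. Oligodendrocyte precursors (6 genes) gave 187, 168 and 206, endothelial cells (12 genes) 270, 240 and 218, and pericytes with smooth muscle (8 genes) 182, 176 and 186. In these 5 lists 0 members were past 2-fold in both. Meningeal fibroblast markers (9 genes) summed to 90.7, 90.9 and 85.8, with Col3a1, a fibrillar collagen, at 76, 217 and 164 counts, and Igf2 at 0 counts in replicate 1. Red blood cell markers (5 genes, led by Hbb-bs) summed to 135, 237 and 150. Of 8 thalamus markers Prkcd was past 2-fold in both, with 538, 3355 and 1493 counts.

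By annotation, 519 of 14707 protein-coding genes were higher in both (3.53%), against 130 of 1437 genes of the class TEC (transcripts still to be experimentally verified, 9.05%) and 96 of 1407 processed pseudogenes (6.82%). The shares were 15 of 100 for miRNA genes, 19 of 193 for sense intronic (9.84%), 37 of 487 for antisense (7.6%), 32 of 579 for lincRNA (5.53%) and 13 of 295 for processed transcripts (4.41%). Of the higher genes 1 of the 15 miRNA and 4 of the 37 antisense genes reached 50 counts. Shares lower in both were 1.27% for protein-coding, 1.81% for TEC, 3.63% for lincRNA and 4.11% for antisense genes. The median of the largest count of the higher genes was 187 for protein-coding genes, 45 for TEC and 19 for pseudogenes. Pseudogenes can share reads with their parent genes, and TEC transcripts often lie within other genes, so these counts are uncertain. Among genes of at least 50 counts in 1 of the 3 libraries, 468 were higher and 110 lower in both.

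With the choroid plexus markers kept apart, the genes that differed most between the replicates were Hspa1a, Hspa1b, Npas4, Plet1 and AU023762, all higher in replicate 1, and Sel1l2, Prr32, Krt18, Wdr86 and Oca2, all higher in replicate 2. Plet1 had 5 counts in the control, 715 in replicate 1 and 47 in replicate 2. Sel1l2 had 266 counts in replicate 2 and 0 in each of the other 4 libraries. Prr32, Krt18, Wdr86 and Oca2 were between 0.0293 and 0.0465 of the control in replicate 1 and between 1.07 and 1.65 in replicate 2, as the choroid plexus markers were. For these genes the replicates therefore give no common value at 4 h.

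Of the 9 genes that the study examined by RNA sequencing, Krt75, Inhba, Cda, Homer1 and Errfi1 were at least 2-fold higher and B230303A05Rik at least 2-fold lower in both replicates. Rcan1, Tpm1 and Dclk1 were above the control in both replicates but not 2-fold higher in both, with Tpm1 at 1.88 and 1.53 times the control.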

How the data were processed

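The authors aligned paired-end reads of stranded total RNA libraries with STAR 2.5.1b to GRCm38.p4, per the labels' processing notes, and deposited HTSeq counts per gene. For HTSeq neither version nor strand setting nor annotation release is stated. Summary lines were dropped. The tests used edgeR 4.0.16 in R 4.3.3 (filterByExpr, TMM, quasi-likelihood, prior count 2, 1 residual degree of freedom, Benjamini-Hochberg, threshold 0.05, all 5 libraries in 4 groups), and DESeq2 1.42.0 and limma 3.58.1 as alternatives. The tools were tested on data simulated from means over all 5 libraries, without the marker differences between the 4 h replicates. Directions were recovered there, but the share of false calls exceeded the threshold in edgeR, DESeq2 and limma-voom. That share may differ in the real data, and calls of each are uncertain. Libraries of single groups were assumed to vary like the 4 h pair. Normalized CPM use TMM library sizes, and a count of 3 was the floor (0.151 to 0.178 normalized CPM in the 3 libraries). Intervals of ratios and shares are exact 95% binomial intervals and leave out all but counting error. Positions and classes came from GENCODE M21, in which 55144 of 55385 identifiers were found, promoters from RefSeq (GRCm38.p6), where Cyr61 and Ctgf are Ccn1 and Ccn2.

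Named were the called gene, the 10 protein-coding genes most higher and most lower by the smaller ratio (at least 50 counts in a library), in each of the 21 function and 15 marker lists up to 4 members ranked the same way and the 2 most abundant, the 5 genes most different each way between the replicates, and the 9 genes of the study. Not every gene this rule names is printed. Further list members named to show a contrast between the replicates or with the ranked members were chosen after their values were seen. Members, lists and rules were chosen with earlier results of these data known.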

Additional observations from a re-analysis of the deposited data

Results flagged for a closer look

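Reads that fell on no gene lie outside the gene counts compared above. Their share was 33.1% in replicate 1 and 25.3% in replicate 2 of 4 h, with 24.7% for the control library, 29.0% for that of 1 h and 30.9% for that of 8 h, so replicate 2 lay closest to the control. The part of this share in the gene differences was not tested.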

How the results depend on the processing

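edgeR's quasi-likelihood test called 1 gene at 4 h, also with a robust fit. It called 0 with median-of-ratios factors and 0 with a mean of at least 1 CPM (2204 and 2041 genes at an unadjusted p under 0.05), 237 with library size alone, which moved the median log2 fold change of all genes from 0.01 to -0.11, 1300 without a filter and 4 with the control and 4 h libraries only. DESeq2 called 238 genes and limma-voom 0 (2145 at an unadjusted p under 0.05). The cause was not tested.

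The 898 higher and 292 lower genes were 575 and 147 with a mean of at least 1 CPM. Chosen after seeing the data, a minimum of 50 counts gave 468 and 110, protein-coding genes alone 519 and 187, and counting intervals that exclude 1 gave 667 and 204. Library size alone gave 446 lower genes. Without 1 of the 4 h replicates the counts ranged from 1234 to 2317 higher and from 692 to 1291 lower. Median-of-ratios factors (904 and 291), no filter (989 and 364) and a pseudocount of 0.5 (925 and 266) stayed within 1.5 times. Leaving out the choroid plexus markers (898 and 292) could change neither count, as none is among them. At 3-fold, promoters of higher genes held an AP-1 site in 16.4%, and those of lower genes a CRE in 6.90% (2 of 29 genes) and an EGR site in 0.0%.

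Of 224 named genes, the sign changed for 0 with median-of-ratios factors or DESeq2, for 9 with library size alone, for 16 without replicate 1 and for 7 without replicate 2. No paired analysis was possible because only the 4 h group has more than 1 library.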
